A study of Mus musculus with 6 samples.

Results

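Tsc2, Pkib, Tnip1, Dusp16 and Sphk1, genes that tune intracellular signalling, were followed through 13 alternative splicing events in primary mouse medullary thymic epithelial cells (mTECs). Tsc2 had 2 events, Pkib 3, Tnip1 6, and Dusp16 and Sphk1 had 1 each. All entries that carry these gene symbols were taken, and events were numbered by their order within the gene. All 13 were listed in all 6 libraries, out of 4658 events of 2685 genes that could be matched across them. The entries are named by gene symbol alone. That the same place in the order is the same event in every library is therefore an assumption. The genes were chosen by their differences in inclusion between knockdown and control in these same libraries, so those differences from the control are given as a description and are no test of whether such genes respond. The contrast between the knockdowns uses the same knockdown libraries and is not independent of that choice.

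mTECs show self-antigens of many organs to maturing thymocytes. The cells were sorted from thymus as CD45- EpCAM+ Ly51- I-A/E+, grown on a fibrin gel with human dermal fibroblasts, and infected with lentiviruses that carried GFP and a short hairpin RNA. The control group, Ctr, had 2 libraries with a hairpin against bacterial LacZ. The Raver2 knockdown group had 1 library with each of the hairpins sh1 and sh2 against Raver2, a partner of the splicing repressor PTB. The Setd2 knockdown group likewise had 1 library for each of its own sh1 and sh2, against the enzyme that trimethylates histone H3 in the body of active genes. All groups share the lentiviral infection, the fibroblast co-culture and the sort for viable I-A/E+ GFP+ cells 5 days after infection. The labels give neither strain nor age, nor whether the paired libraries had separate mice or cultures behind them, so spreads within a group may be technical.

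Each event was measured as its inclusion frequency, a fraction from 0 to 1. It is a ratio within the gene and says nothing of how much of the gene was expressed. Since the tables hold fractions alone, sequencing depth is unknown and counting error cannot be given. The exon or splice site behind each event is not known here. No event of Raver2 or Setd2 was listed in any library, so the extent of either knockdown could not be checked. Among defining markers, 2 of 10 for thymic epithelium, 1 of 10 for fibroblasts and 3 of 10 for leukocytes had an event, which gives no level for any of those cell types.

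As background, 4 of these genes act as brakes. Tsc2 encodes tuberin, which with hamartin switches off the small GTPase Rheb and so restrains the growth kinase mTOR. Pkib encodes an inhibitor that blocks the catalytic subunit of the cAMP-dependent kinase PKA by posing as its substrate. Tnip1 encodes ABIN-1, which binds ubiquitin chains and the deubiquitinase A20 and dampens NF-kB, the pathway by which receptors such as RANK and CD40 drive mTEC maturation. Dusp16 encodes a phosphatase that inactivates the stress-activated MAP kinases. Sphk1 is not a brake: it encodes a lipid kinase that makes sphingosine-1-phosphate, a signal for survival and migration.

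The annotation shows what kinds of splice choice each gene offers. Tsc2 lies on chromosome 17 (24595816 to 24632630, minus strand, mm10, GENCODE M21). Among its 4 transcripts matched to RefSeq mRNAs, 2 internal exons are present in some and skipped between the same neighbours in others, and both are coding. They are printed because Tsc2 also had 2 events, although which splice choice the events concern is not known here. One is 69 bases long (chr17:24601389-24601457) and the other 129 bases long (chr17:24606224-24606352), so each can be skipped without a shift of the reading frame. In the sequences, read on the minus strand from the GENCODE M21 transcripts, capitals mark the skippable exon and lower case the 15 bases of the neighbouring exons on each side.

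Tsc2 69-base exon included: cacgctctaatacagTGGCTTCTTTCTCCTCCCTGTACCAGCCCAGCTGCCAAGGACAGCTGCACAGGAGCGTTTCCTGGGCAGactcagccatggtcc
Tsc2 69-base exon skipped: cacgctctaatacagactcagccatggtcc
Tsc2 129-base exon included: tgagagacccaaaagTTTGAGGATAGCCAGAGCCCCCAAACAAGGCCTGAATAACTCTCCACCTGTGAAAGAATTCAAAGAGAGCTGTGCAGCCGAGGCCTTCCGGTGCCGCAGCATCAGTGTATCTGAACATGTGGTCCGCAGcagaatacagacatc
Tsc2 129-base exon skipped: tgagagacccaaaagcagaatacagacatc

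The other genes differ in the choices they offer. Pkib (chromosome 10, 57631981 to 57741112, plus strand) has 2 skippable exons among 6 RefSeq-matched transcripts, 1 untranslated and 1 partly coding, and 4 alternative first exons. Tnip1 (chromosome 11, 54910785 to 54962917, minus strand) has 3 among 5 such transcripts, 2 untranslated and 1 partly coding. Dusp16 (chromosome 6, 134715468 to 134792625, minus strand) has no skippable exon among its 2 RefSeq-matched transcripts, which differ in their last exon. Sphk1 (chromosome 11, 116530925 to 116536674, plus strand) has none among 4, which begin with 4 different first exons.

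Among the 13 events, 11 had Raver2 knockdown libraries that lay beyond both Ctr libraries, and 10 had Setd2 knockdown libraries that did. The same held for 44.0% and 42.5% of all 4658 events. In the fit over all events (limma on the fractions, with Benjamini-Hochberg adjustment and a threshold of 0.05), 4 of the 13 events were called for Raver2 knockdown and 2 for Setd2 knockdown, where 2.43% and 2.23% of all events were. For the mean of both knockdowns 4 of 13 were called, against 3.07%, and in 10 of 13 all knockdown libraries lay beyond both Ctr libraries, against 24.2%. With the 4 knockdown libraries treated as 1 group 2.88% of all events were called; the mean difference was then no longer called for Dusp16 (adjusted p = 0.170) or Tnip1 event 3 (adjusted p = 0.161). These contrasts chose the genes, so nothing is read from the counts. The comparisons with Ctr share the same 2 Ctr libraries.

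**Figure D1:**
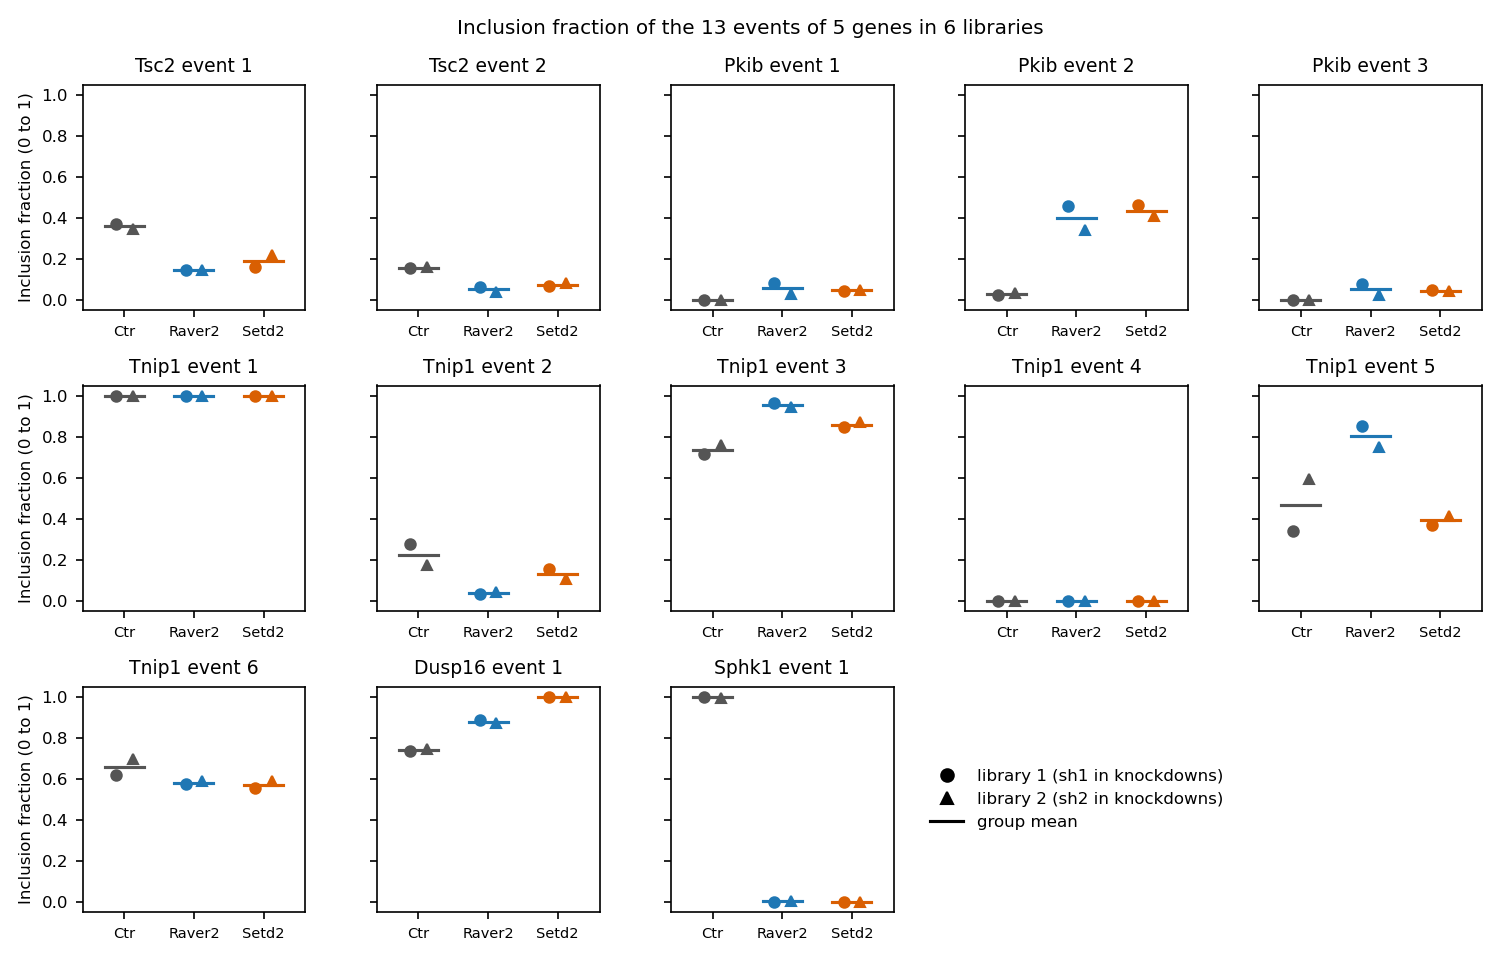
Inclusion fraction (0 to 1, vertical axis) of each of the 13 events in Ctr, Raver2 knockdown and Setd2 knockdown libraries; circles are library 1 or hairpin sh1, triangles library 2 or hairpin sh2, and lines group means of 2 libraries. Tsc2 events lie lower and Pkib event 2 higher in all 4 knockdown libraries than in Ctr, Sphk1 goes from one end of the scale to the other, and Tnip1 events 1 and 4 stay at the ends.

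Both events of Tsc2 were lower in every knockdown library than in either Ctr library. Event 1 was included at 0.373 and 0.346 in the Ctr libraries, 0.147 and 0.145 under Raver2 sh1 and sh2, and 0.160 and 0.220 under Setd2 sh1 and sh2. The Setd2 libraries lay above the Raver2 libraries, and neither knockdown overlapped Ctr. The difference from Ctr was -0.213 ± 0.0315 (SE) for Raver2 knockdown and -0.169 ± 0.0315 for Setd2 knockdown, and neither was called (limma, adjusted p = 0.10 and 0.155).

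Tsc2 event 2 was the less included of the pair. It stood at 0.157 and 0.161 in Ctr, 0.0649 and 0.0397 under Raver2 sh1 and sh2, and 0.0691 and 0.0833 under Setd2 sh1 and sh2. Its Ctr libraries differed by less than the knockdown libraries did. The difference was -0.106 ± 0.0113 (SE) for Raver2 knockdown, which was called (limma, adjusted p = 0.0428), and -0.0824 ± 0.0113 for Setd2 knockdown, which was not (adjusted p = 0.0825). The call for Raver2 knockdown was lost under 9 of 10 other settings, with adjusted p from 0.0549 to 0.127, among them leaving out any library other than that of Raver2 sh1 (0.0446, which kept it). Event 1 stayed 2.16 to 3.65 times as high as event 2 in all 6 libraries, with the highest ratio under Raver2 sh2.

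Pkib had the largest difference from Ctr among those of the 13 events that were mid-range, that is with every library between 0.01 and 0.99. Its event 2 was included at 0.0239 and 0.0359 in Ctr. It reached 0.459 and 0.341 under Raver2 sh1 and sh2 and 0.461 and 0.408 under Setd2 sh1 and sh2. All knockdown libraries were far above Ctr, and the knockdown groups overlapped each other. The difference was 0.370 ± 0.0571 (SE) for Raver2 knockdown and 0.405 ± 0.0571 for Setd2 knockdown. Neither was called, with an adjusted p of 0.109 and 0.0878. The mean of both knockdowns differed from Ctr by 0.387 ± 0.0494, also not called (adjusted p = 0.0589), but it was called under 3 of 10 other settings: the arcsine scale (0.0340), mid-range events alone (0.0370) and the 4 knockdown libraries as 1 group (0.0245). Under the 7 others the adjusted p reached 0.174.

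The other events of this PKA inhibitor were nearly absent in Ctr. Event 1 of Pkib was below 0.01 in both Ctr libraries, 0.0851 and 0.0318 under Raver2 sh1 and sh2, and 0.0433 and 0.0507 under Setd2 sh1 and sh2. Event 3 was below 0.01 in Ctr, 0.0806 and 0.0269 under Raver2, and 0.0479 and 0.0448 under Setd2. Events 1 and 3 differed by at most 0.00588 in any library, so their values were nearly the same throughout. Neither was called in any contrast with all libraries. With a library left out some calls appeared. For Raver2 knockdown both events were called without Raver2 sh2 (limma, adjusted p = 0.0290 and 0.00813), and event 3 also without Raver2 sh1 (0.0430). For Setd2 knockdown event 3 was called without Raver2 sh1 or sh2 (0.0471 and 0.0492). The mean of both knockdowns was called without Raver2 sh1 or sh2 for event 1 (0.0478 and 0.0254) and for event 3 (0.0147 and 0.0116). Between the knockdowns event 3 was called without Raver2 sh2 (0.0456). For all 3 Pkib events sh1 gave the higher Raver2 value, and the Raver2 groups had an SD of 0.0377, 0.0839 and 0.0380 (n = 2) for events 1 to 3. The Setd2 groups had 0.00529, 0.0374 and 0.00216.

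Tnip1 held both fixed and varying events. Event 1 was above 0.99 and event 4 below 0.01 in all 6 libraries. Event 3 was included at 0.716 and 0.758 in Ctr, 0.964 and 0.947 under Raver2 sh1 and sh2, and 0.848 and 0.872 under Setd2 sh1 and sh2. The groups did not overlap, with Setd2 libraries between those of Ctr and Raver2. The difference was 0.219 ± 0.0199 (SE) for Raver2 knockdown, which was called (limma, adjusted p = 0.0301), and 0.123 ± 0.0199 for Setd2 knockdown, which was not. The call was lost under 5 of 10 other settings, including without either Raver2 library and without either Setd2 library (adjusted p from 0.0941 to 0.125). Raver2 and Setd2 knockdown differed by 0.0955 ± 0.0199 in this event, and that difference did not pass (limma, adjusted p = 0.462).

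Tnip1 event 2 ran opposite to event 3. It was 0.277 and 0.175 in Ctr, 0.0328 and 0.0444 under Raver2 sh1 and sh2, and 0.157 and 0.110 under Setd2 sh1 and sh2. The groups again did not overlap, but the spread in Ctr was wide (SD 0.0721, n = 2), and the differences of -0.188 ± 0.0418 (SE) and -0.0929 ± 0.0418 were not called. In each library the fractions of events 2 and 3 added up to between 0.934 and 1.01, the lowest sum being in Ctr library 2. The events are near complements. Closer pairs occur: of 1008 genes with at least 2 events, 199 (19.7%) hold a pair adding up to 1 within 0.02 in every library. That count includes pairs fixed at opposite ends of the scale, as Tnip1 events 1 and 4 are. It is therefore not the share of genes with a varying pair like events 2 and 3.

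**Figure D2:**
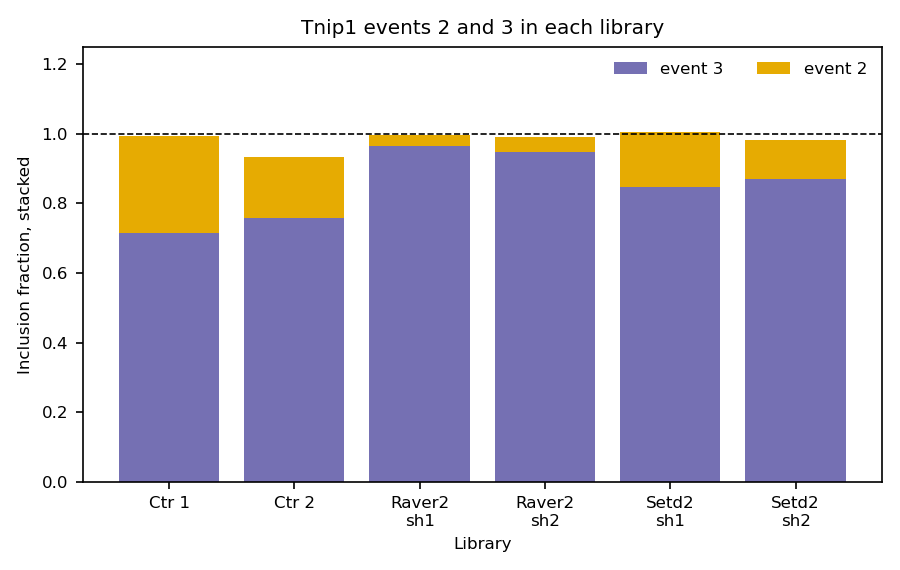
Inclusion fractions of Tnip1 event 3 (lower segment) and event 2 (upper segment) stacked for each of the 6 libraries, with a dashed line at 1. The stacks end between 0.934 and 1.01, and event 2 takes its largest part in the Ctr libraries and its smallest under Raver2 sh1 and sh2.

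The remaining Tnip1 events varied more within groups. Event 5 was 0.342 and 0.594 in Ctr, 0.855 and 0.749 under Raver2 sh1 and sh2, and 0.373 and 0.415 under Setd2 sh1 and sh2. Raver2 libraries lay above all others, while Setd2 libraries fell between the Ctr libraries, and the Ctr gap of 0.252 was the widest within any group over the 13 events. The differences from Ctr were 0.334 ± 0.108 (SE) and -0.0738 ± 0.108, and neither was called. Raver2 minus Setd2 knockdown was 0.408 ± 0.108 and did not pass (limma, adjusted p = 0.605). Event 6 was 0.621 and 0.696 in Ctr, 0.576 and 0.588 under Raver2, and 0.555 and 0.590 under Setd2. All knockdown libraries of event 6 lay below Ctr by small amounts, and no contrast was called.

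Dusp16 had a graded order over the groups. Its event was included at 0.735 and 0.748 in Ctr, 0.885 and 0.872 under Raver2 sh1 and sh2, and above 0.99 in both Setd2 libraries. No group overlapped another, and the libraries of a group differed little (SD 0.00889, 0.00911 and 0.00154, n = 2). Both Setd2 values lay at the upper end of the scale, where a fraction has little room to vary. The event was therefore not among the mid-range events. The difference from Ctr was 0.137 ± 0.00881 (SE) for Raver2 knockdown and 0.257 ± 0.00881 for Setd2 knockdown, and both were called (limma, adjusted p = 0.0155 and 0.00583). With only the 4 libraries compared neither was (adjusted p = 0.0813 and 0.0593). The Raver2 call was also lost on the arcsine scale (adjusted p = 0.0701) and without Setd2 sh1 or sh2 (adjusted p = 0.0685 each).

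Dusp16 was the 1 event of the 13 called between the knockdowns, where 0.730% of all events were. Raver2 minus Setd2 knockdown was -0.120 ± 0.00881 (limma, adjusted p = 0.0419). This call was lost without any 1 of the 6 libraries (adjusted p from 0.0583 to 0.137), with only the 4 knockdown libraries (0.0545) and with the hairpin number as a replicate block (0.504). Without 1 library the difference ranged from -0.126 to -0.114. In this comparison 3 of the 13 events had an unadjusted p under 0.05, against 6.12% of all events. They were that of Dusp16 and events 3 and 5 of the 1 gene Tnip1. The groups lay apart in 6 of 13, against 33.8% of all events. The genes were chosen with values of these same knockdown libraries, so nothing is read from these counts.

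Sphk1 gave the largest difference of the 13 events. Its only event was above 0.99 in both Ctr libraries and below 0.01 in all 4 knockdown libraries, with the highest knockdown value at 0.00698 under Raver2 sh2. The difference was -0.994 ± 0.0391 (SE) for Raver2 knockdown and -0.997 ± 0.0391 for Setd2 knockdown, and both were called (limma, adjusted p = 0.00520 and 0.00583). The Raver2 call was kept under all 9 other settings, and the Setd2 call was lost only with the 4 libraries compared (adjusted p = 0.0593). The fit on mid-range events alone was not among these settings, since all values of this event lay at the ends of the scale. Over all 4658 events, 7 went from above 0.99 in both Ctr libraries to below 0.01 in every knockdown library, Sphk1 among them, and 2 went the opposite way. For comparison, 138, 125 and 132 events were below 0.01 in one library and above 0.99 in the other within Ctr, Raver2 and Setd2 respectively. Between entries matched by order, a full change of the fraction therefore also occurred in libraries of the same group. Whether matched entries, that of Sphk1 included, are the same event in every library was not tested. For Sphk1 the libraries of each group were alike.

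**Figure D3:**
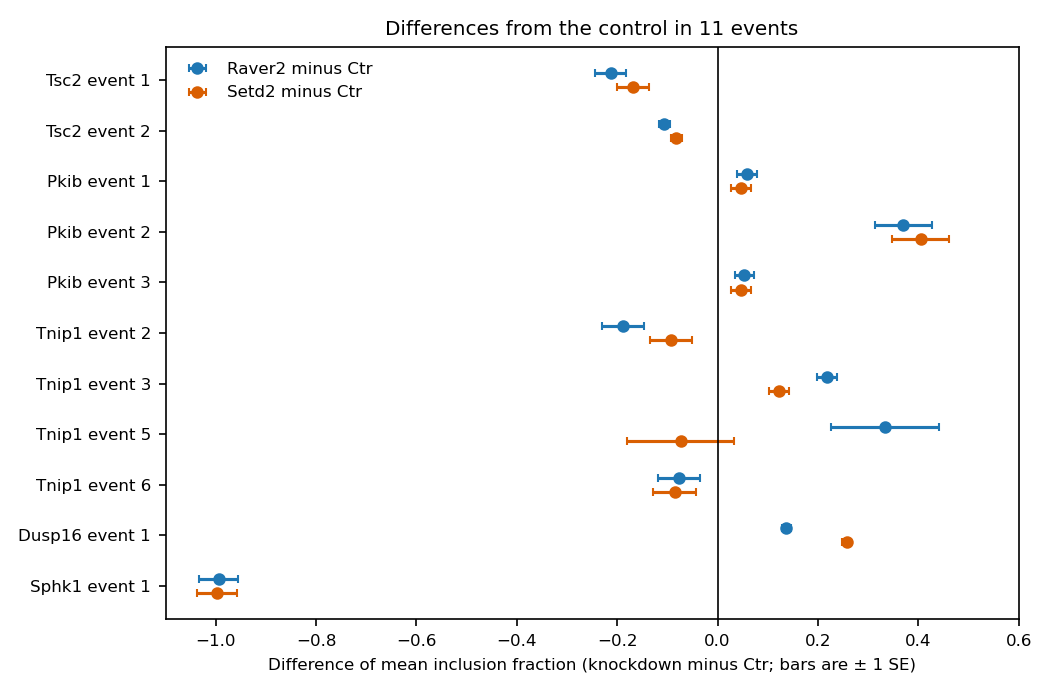
Difference of the mean inclusion fraction from Ctr (horizontal axis, knockdown minus Ctr, bars ± 1 SE from the fit over all events) for the 11 events other than Tnip1 events 1 and 4. Sphk1 lies near -1 and Pkib event 2 near 0.4, and the bars are widest for Tnip1 event 5; both comparisons use the same Ctr libraries.

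In the fit with all libraries, none of the 13 events other than that of Dusp16 differed between the knockdowns by the test. That does not show that the knockdowns act alike. Of the 13 events, 6 had a library below 0.01 or above 0.99, and 7 had none. Over all events 57.1% had such a library. Gaps over 0.1 between the libraries of a group occurred in 2 of 13 events in Ctr, 2 under Raver2 and 0 under Setd2, against 27.7%, 22.9% and 25.5% of all events.

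Other genes of the same pathways were listed to set the members in context. The lists held textbook genes, and 123 events of 60 genes other than the members could be matched. None of the 123 was called for Raver2 or for Setd2 knockdown (limma), against 2.43% and 2.23% of all events. An unadjusted p under 0.05 was found for 13 of 123 (10.6%) in each comparison, against 12% (560) and 11.6% (540) of all 4658 events, which is near the background. In each comparison 4 of the 13 were events of Flcn. The count of 0 depended on the setting. For Raver2 knockdown 1 of the 123 was called without the variance trend, where 115 of all 4658 events were. Some of the 123 were also called for Raver2 knockdown without Ctr library 1 or 2 and without Raver2 sh1 or sh2. For Setd2 knockdown some were called without Ctr library 1 or 2, Raver2 sh1 or sh2, or Setd2 sh2. Calls over all events changed under these settings too, so these calls are not set against the background. For the mean of both knockdowns 1 was called, against 3.07% of all events. Between the knockdowns 0 were called and 5 (4.07%) had an unadjusted p under 0.05, against 6.12% of all events. Some were called without Raver2 sh1, Raver2 sh2 or Setd2 sh2.

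In the mTORC1 and TSC list, 16 of 73 genes had 31 events, and 0 were called in any contrast. For each knockdown 4 had an unadjusted p under 0.05 (limma), all of them events of the 1 gene Flcn. The median difference of the 31 events from Ctr was -0.00628 for Raver2 and 0.000618 for Setd2 knockdown. The medians over all events were -8.92e-07 and 3.08e-11. Flcn, which controls the Rag GTPases that bring mTORC1 to the lysosome, had its event 4 at 0.863 ± 0.0156 in Ctr (SD, n = 2), 0.743 ± 0.0125 under Raver2 and 0.780 ± 0.0105 under Setd2 knockdown, with adjusted p = 0.0687 and 0.154 (limma). Akt1s1, an inhibitory subunit of mTORC1, stood at 0.437, 0.214 and 0.316 on average. Mlst8, a core subunit, had event 2 at 0.194 in Ctr, where its libraries differed widely (SD 0.275), 0.493 and 0.738. Mapkap1, a subunit of mTORC2, had 0.952, 0.915 and 0.956, and Nprl3, which restrains mTORC1 when amino acids are short, had 0.0211, 0.0288 and 0.0388 in event 2. None of these 5 genes passed.

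The cAMP and PKA list had 24 events of 13 genes out of 59, with 0 called, 0 at an unadjusted p under 0.05 for Raver2 and 1 for Setd2 knockdown. Pkig, the sister inhibitor of Pkib, had event 2 at 0.396 ± 0.0432 (SD, n = 2), 0.386 ± 0.0177 and 0.514 ± 0.0215 in Ctr, Raver2 and Setd2 knockdown. Adcy3, an adenylyl cyclase, had means of 0.736, 0.548 and 0.877, and Creb1, a transcription factor that PKA phosphorylates, had 0.957, 0.911 and 0.930 in event 2. Pde8b, a phosphodiesterase that breaks down cAMP, was above 0.99 in all 4 knockdown libraries, but its Ctr libraries stood at 0.803 and 0.00216. Pde1c, another phosphodiesterase, was 0.685 and 0.570 in Ctr, 0.492 and above 0.99 under Raver2, and below 0.01 under Setd2 knockdown. None of these passed.

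In the NF-kB list, 26 events of 13 genes out of 62 were matched, and 4 had an unadjusted p under 0.05 for each knockdown with 0 called. The call for the mean of both knockdowns was event 1 of Tank, an adaptor of the kinase TBK1. Its inclusion was 0.0796 and 0.0804 in Ctr, 0.0470 and 0.0346 under Raver2 sh1 and sh2, and 0.0438 and 0.0445 under Setd2 sh1 and sh2. It fell by 0.0376 ± 0.00424 (SE; limma, adjusted p = 0.0448). The call was lost under 7 of 10 other settings, among them without either Ctr library and without either Setd2 library (adjusted p from 0.113 to 0.143). Cyld, a deubiquitinase that like Tnip1 restrains NF-kB, had event 2 at 0.663 ± 0.0165 in Ctr, 0.454 ± 0.0305 and 0.485 ± 0.0205, and event 1 at 0.0460, 0.0696 and 0.0876. Itch, a ubiquitin ligase of the A20 complex, had means of 0.249, 0.143 and 0.129. Neither gene passed in any contrast.

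The MAPK list had 36 events of 13 genes out of 91. It had 0 calls, with 5 events at an unadjusted p under 0.05 for Raver2 and 4 for Setd2 knockdown. Spag9, a scaffold of the stress-activated kinases that Dusp16 inactivates, had event 2 at 0.527 ± 0.0711 (SD, n = 2), 0.294 ± 0.0628 and 0.237 ± 0.00339 in Ctr, Raver2 and Setd2 knockdown. Map4k4, a kinase upstream of JNK, had means of 0.168, 0.123 and 0.0922 in event 4, and Mknk1, a kinase activated by MAP kinases, had 0.0366, 0.0659 and 0.0652 in event 2. Mapk7, also called ERK5, had event 3 at 0.923, 0.889 and 0.895. The sphingolipid list had only 6 events of 5 genes out of 45, with 0 called and 0 at an unadjusted p under 0.05. Its events included Smpd4, a sphingomyelinase, with means of 0.113, 0.0868 and 0.0680, and Sgms1, a sphingomyelin synthase, with 0.0739, 0.0686 and 0.0347. Acer2, a ceramidase, was above 0.99 in every library but that of Raver2 sh1, at 0.517, and Cib1, which brings Sphk1 to the membrane, was at 0.989 or above in all 6.

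**Figure D4:**
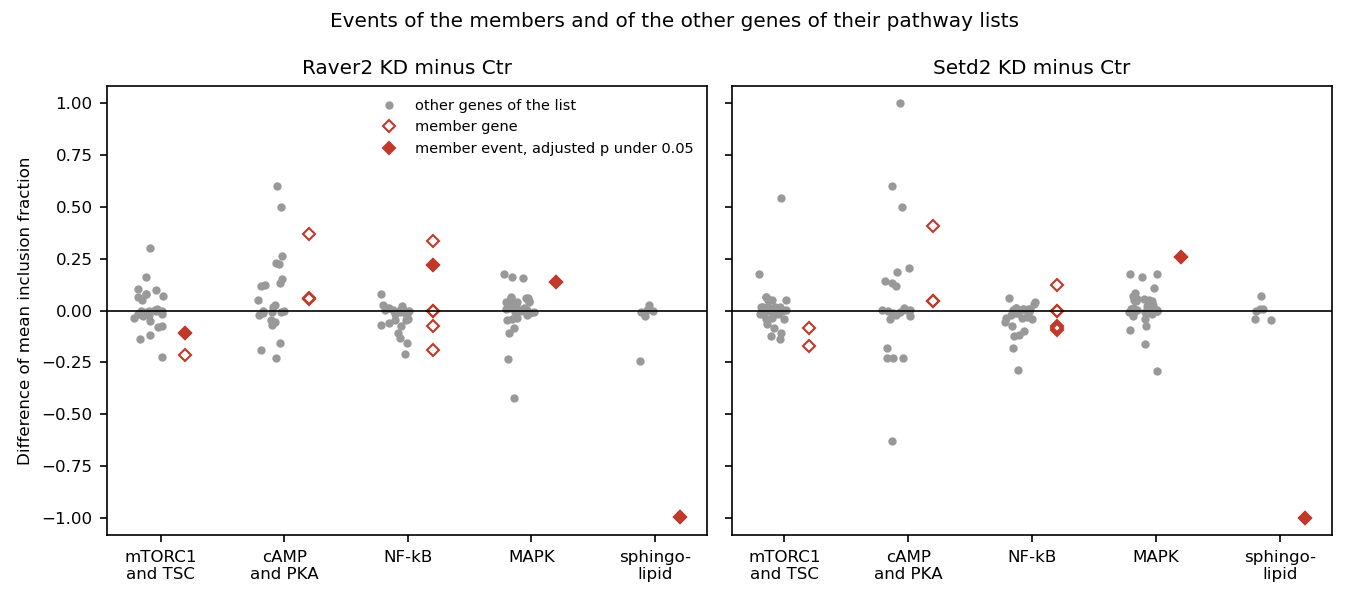
Difference of the mean inclusion fraction from Ctr for every event of the 5 pathway lists, with Raver2 knockdown on the left and Setd2 knockdown on the right; grey points are events of other genes and diamonds events of the members, filled where the adjusted p was under 0.05. Sphk1 lies near -1 in both panels, far from the 6 other sphingolipid events, and no grey point was called.

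Events of other genes with the most similar pattern were found by the root mean square difference of the fractions over the 6 libraries, among all events of genes other than the members. Tsc2 event 1 was nearest to Mov10, an RNA helicase (0.0232), and to a pair of Qsox1 events with identical values (0.0472). Tsc2 event 2 was nearest to Sat1, which acetylates polyamines (0.020), Aplp2 event 1 (0.0280) and Ythdf3 event 2 (0.0308). Pkib event 2 had no close match, and the nearest were the splicing factor Srsf1 event 1 (0.0786), Uspl1 event 3 (0.0813) and 3830406C13Rik (0.0837).

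Tnip1 event 3 was nearest to Smox, a spermine oxidase (0.0428), Zmym6 event 3 (0.0499) and Itga6, an integrin chain (0.0525). Tnip1 event 2 was nearest to Fuom event 3 (0.0239), Pitpnm2 (0.0443) and Morf4l2 event 2 (0.0523). Tnip1 event 5 was nearest to Rnf146 event 2 (0.0699), Repin1 event 2 (0.125) and Rtel1 event 5 (0.137), and event 6 to Adal (0.0244), Hnrnpc event 3 (0.0288) and Polr2a (0.0299). Dusp16 was nearest to Ildr1 event 2 (0.0400), Itga6 (0.0483) and Hdac7 event 4 (0.0561). Ildr1 event 2 stood at 0.791 and 0.817 in Ctr, 0.872 and 0.832 under Raver2 and above 0.99 under Setd2 knockdown. Sphk1 was nearest to Gucy2c (0.00289), Lrrc4c event 2 (0.00318) and A730056A06Rik (0.00345), each above 0.99 in Ctr and below 0.01 in all knockdown libraries. With 6 libraries in 3 groups, a small distance says only that the fractions are close.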

How the data were processed

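Inclusion frequencies were deposited by the authors as fractions from 0 to 1, 1 table per library. Per the submitters' processing notes, Trimmomatic 0.39, TopHat2, Cufflinks and build mm10 were used, with no role stated. How fractions were computed or filtered is not given in the sources used here. Per the labels' protocols, libraries came from low-input amplified RNA. This can push fractions towards 0 or 1, but whether it did so here was not tested.

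Events were matched by gene and order within the gene, keeping genes with the same number of events in all 6 libraries; 213 of 2898 genes were left out. Correlations between libraries in genes with several events were 0.742 to 0.802, and 0.0863 to 0.133 with the order shifted by a place. This check did not cover Dusp16 and Sphk1, which had only 1 event each.

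limma 3.58.1 (R 4.3.3) was fitted to the fractions of all 4658 events with group means over 6 libraries, a variance trend, two-sided contrasts and Benjamini-Hochberg adjustment, with a threshold of 0.05. The same fit was tested on simulated data, where it called some unchanged events and missed some changed ones. Tables were handled in Python 3.11.15 with pandas 2.3.3. Alternatives were the arcsine scale, no variance trend, fewer libraries or events, a replicate block and, added after seeing the data, the knockdowns as 1 group.

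The members and lists were chosen with earlier results of these data known. Named are all member events, from each pathway list every gene with a call and the 3 with the largest absolute moderated t in each contrast with Ctr, and the 3 most similar events of each member event with a range of at least 0.1. Exons and positions are from GENCODE M21, matched by symbol for all 5 genes.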

Additional observations from a re-analysis of the deposited data

Results flagged for a closer look

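The event of Dusp16, a phosphatase of MAP kinases, was called in the contrast between the knockdown groups. Dusp16 was chosen by differences from Ctr that used these same knockdown libraries, so this contrast is not independent of that choice. Raver2 minus Setd2 knockdown was -0.120 (limma, adjusted p = 0.0419), with both Raver2 libraries below both Setd2 libraries. The call was lost under 8 of 10 other settings: with the hairpin number as a replicate block (adjusted p = 0.504), with only the 4 libraries compared (0.0545) and without any 1 of the 6 libraries (0.0583 to 0.137).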

How the results depend on the processing

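For 11 member events (all but Tnip1 events 1 and 4) and Tank event 1, 45 comparisons were recomputed, and other named events were not. Of 12 calls, 10 were lost under at least 1 setting, all but those of Sphk1 for Raver2 and for the mean of both knockdowns, and 7 uncalled comparisons were called under some setting. The Sphk1 event was not mid-range, so the setting with mid-range events alone did not apply to it. None of the 12 calls changed direction. Among the uncalled comparisons 6 did, each without 1 library. Over the fits that each left out 1 library, the difference ranged from -0.200 to 0.0523 for Tnip1 event 5 (Setd2 minus Ctr). For Raver2 minus Setd2 it ranged from -0.0152 to 0.0381 for Pkib event 1 and -0.0937 to 0.0249 for Pkib event 2. In that contrast it was -0.0195 to 0.0342 for Pkib event 3, -0.00867 to 0.0271 for Tnip1 event 6 and -0.000274 to 0.00670 for Sphk1. Over all events, calls numbered 113 for Raver2 and 104 for Setd2 knockdown against Ctr, 34 between the knockdowns and 143 for their mean. With mid-range events alone they were 10, 6, 0 (107 at an unadjusted p under 0.05) and 21 of 2000 events. With only the 4 libraries compared they were 75 for Raver2 and 0 for Setd2 (554 at an unadjusted p under 0.05). Leaving out 1 library gave 74 to 291, 48 to 279, 46 to 119 and 101 to 297. Calls against Ctr were most without Ctr library 1 (291, 279 and 297) or 2 (280, 261 and 279), and fewest for Raver2 without Setd2 sh2 (74) and for Setd2 without Raver2 sh1 (54) or sh2 (48). Between the knockdowns they were 119 and 97 without Raver2 sh1 and sh2, 67 and 106 without Setd2 sh1 and sh2, and 56 without Ctr library 2. The cause was not tested. Without 1 library, a lone library is assumed to vary like the other groups. With the hairpin number as a replicate block, 0 events were called between the knockdowns (265 at an unadjusted p under 0.05); the numbers name unrelated hairpins, and same-numbered libraries did not deviate together (r = 0.0146 across events). Unknown depth limits every value.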
